A study of Rattus norvegicus with 24 samples.

Results

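The kidney reabsorbs filtered sodium through a chain of transporters, each placed in its own stretch of the nephron, and 9 genes of that chain, of the 10411 named on the array, were examined here in kidneys of rats on a diet high in salt and fat. The genes were Slc9a3, Slc12a1, Slc12a3, Scnn1a, Scnn1b, Scnn1g, Atp1b1, Fxyd4 and Sgk1, taken in order from the proximal tubule to the collecting duct. They were found as all probe sets whose single gene symbol in the array annotation was one of these names, which gave 12 probe sets of the 15923 on the array. Scnn1a, Scnn1g and Atp1b1 had a pair of probe sets each, and the other genes had 1. All 12 were bright enough to be tested, and Scnn1a had the dimmest of them, above the filter level on 20 of 24 arrays.

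All 24 animals were male stroke-prone spontaneously hypertensive rats, a strain (SHR-SP) bred for inherited high blood pressure and stroke. In the high salt plus fat groups, here HSF, rats were changed at 11 weeks of age to a chow with 24.5% fat and were given 1% NaCl to drink. In the normal diet groups, rats of the same age kept to plain powdered chow and water. Kidneys were taken after 2 or 8 weeks, which made 4 groups of 6 animals with 1 array per animal. Every animal carried the hypertensive background, no normotensive strain was part of the comparison, and salt and fat were always given together. RNA came from whole kidney, so fewer cells of a type and less RNA per cell cannot be told apart in any value below.

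Sodium crosses the apical membrane of the proximal tubule largely in exchange for protons, then enters the thick ascending limb with potassium and chloride, the distal convoluted tubule with chloride, and the collecting duct through a channel. The sodium pump in the basolateral membrane drives all of these steps. Aldosterone acts on the last stretch of the nephron, where it raises the activity of the channel in part through the kinase encoded by Sgk1, and a salt load lowers aldosterone. Slc9a3 encodes NHE3, the proton exchanger of the proximal tubule and also of the thick ascending limb. Slc12a1 encodes NKCC2, the target of loop diuretics, and Slc12a3 encodes NCC, the target of thiazides. Scnn1a, Scnn1b and Scnn1g encode the 3 subunits of the epithelial sodium channel ENaC. Atp1b1 encodes the beta subunit of the pump, and Fxyd4 a small membrane protein of the collecting duct, known as CHIF, that raises the affinity of the pump for sodium.

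The 250 bases before the transcription start are shown for the 4 genes that had a diet difference past the test, so that the start regions of the transcripts that differed can be seen. Sequences are from RefSeq, build GRCr8, on the strand of the gene. A window was found for 7 of the 9 genes, with 10 windows in all because Slc12a1 and Sgk1 have several starts. Capitals mark matches, on either strand, to 5 short motifs. These were the steroid receptor half-site AGAACA or TGTTCT, the NFAT core TGGAAA or TTTCCA, the TATA box TATAAA or TTTATA, the GC box GGGCGG or CCGCCC, and the CCAAT box CCAAT or ATTGG, and none of the letter strings contains another.
Slc9a3, chr1:30996003-30996252, minus strand: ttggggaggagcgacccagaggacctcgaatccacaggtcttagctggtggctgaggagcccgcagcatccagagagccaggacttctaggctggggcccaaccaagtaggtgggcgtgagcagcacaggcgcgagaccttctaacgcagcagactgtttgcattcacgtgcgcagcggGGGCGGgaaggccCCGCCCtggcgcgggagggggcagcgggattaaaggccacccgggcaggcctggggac
Slc12a1, the first of its 2 starts, chr3:132859340-132859589, plus strand: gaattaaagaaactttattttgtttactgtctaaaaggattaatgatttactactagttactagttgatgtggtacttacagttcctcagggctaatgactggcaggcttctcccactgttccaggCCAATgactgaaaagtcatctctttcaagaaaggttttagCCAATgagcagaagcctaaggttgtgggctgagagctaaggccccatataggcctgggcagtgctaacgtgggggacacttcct
Scnn1b, chr1:185861126-185861375, plus strand: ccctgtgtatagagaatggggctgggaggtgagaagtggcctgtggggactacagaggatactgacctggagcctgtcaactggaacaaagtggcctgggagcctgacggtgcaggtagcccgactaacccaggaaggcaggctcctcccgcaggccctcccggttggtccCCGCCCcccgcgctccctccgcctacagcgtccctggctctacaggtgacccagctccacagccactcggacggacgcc
Fxyd4, chr4:152786046-152786295, minus strand: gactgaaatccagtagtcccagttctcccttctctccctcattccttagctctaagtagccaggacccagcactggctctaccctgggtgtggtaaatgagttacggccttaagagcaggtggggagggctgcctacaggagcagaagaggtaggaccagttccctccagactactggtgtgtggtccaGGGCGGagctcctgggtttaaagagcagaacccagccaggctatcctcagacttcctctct
Slc9a3 had 2 GC boxes, 71 and 58 bases before the start. Scnn1b had 1 GC box and so had Fxyd4, 79 and 61 bases before their starts. Slc12a1 had 2 CCAAT boxes, 124 and 84 bases before the start. Of 33469 rat windows of the same length, 30.5% held a GC box and 34.0% a CCAAT box. The TATA box letters were in 12.9% of all windows, and in 3 of the 10 windows here, that of Slc12a3 and 2 of the 3 windows of Sgk1. The steroid receptor half-site, in 17.5% of all windows, was in none of the 10 windows here, and the NFAT core, in 19.7%, was in 1 window of Sgk1. These are matches of letters, and nothing was measured at the promoters.

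Values are array signals made with MAS5, on a linear scale. Differences are of log2(signal + 7.2), given ± SE, HSF minus normal diet unless another pair is named, and understate the change of dim genes. A difference was called where the adjusted p of limma was under 0.05 over all 10208 probe sets tested. The arrays had median signals from 68.7 to 78.7. Signals of different probe sets are not compared with each other, because each probe binds with its own strength.

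After 2 weeks, transcripts of the loop cotransporter Slc12a1 and of the collecting duct pump regulator Fxyd4 were higher on the HSF diet, and those of the channel subunit Scnn1b were lower. After 8 weeks Slc12a1 and Fxyd4 were again higher, and the proximal exchanger Slc9a3 was lower. At each time 2 of the 9 genes were thus called higher and 1 lower, a share of 33.3%. Of all probe sets tested, 8.74% were called at 2 weeks, 4.55% higher and 4.19% lower. At 8 weeks 9.14% were called, 5.63% higher and 3.51% lower. The median difference of the 9 genes was 0.18 at 2 weeks and -0.06 at 8 weeks, beside 0.02 and -0.0015 over all probe sets. With so few genes these shares describe the 9 and do not set them apart from the array.

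Of the 6 calls, 3 were kept in every refit. These were Fxyd4 at both times and Slc9a3 at 8 weeks. The calls of Slc12a1 and Scnn1b were lost in some refits, without a single array or with a covariate added, as given with each gene below. Refits with a covariate used the level of spiked control RNA, an index of 3 adipocyte genes for fat in the sample, or the GAPDH ratio of 3' to 5' signal for RNA integrity. With the spike-in level, 2 genes were higher and 0 lower at 2 weeks, and 1 was higher and 1 lower at 8 weeks. With the fat index or the GAPDH ratio, 1 gene, Fxyd4, was higher at 2 weeks and 0 were lower. At 8 weeks those covariates left the counts at 2 higher and 1 lower.

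**Figure D1:**
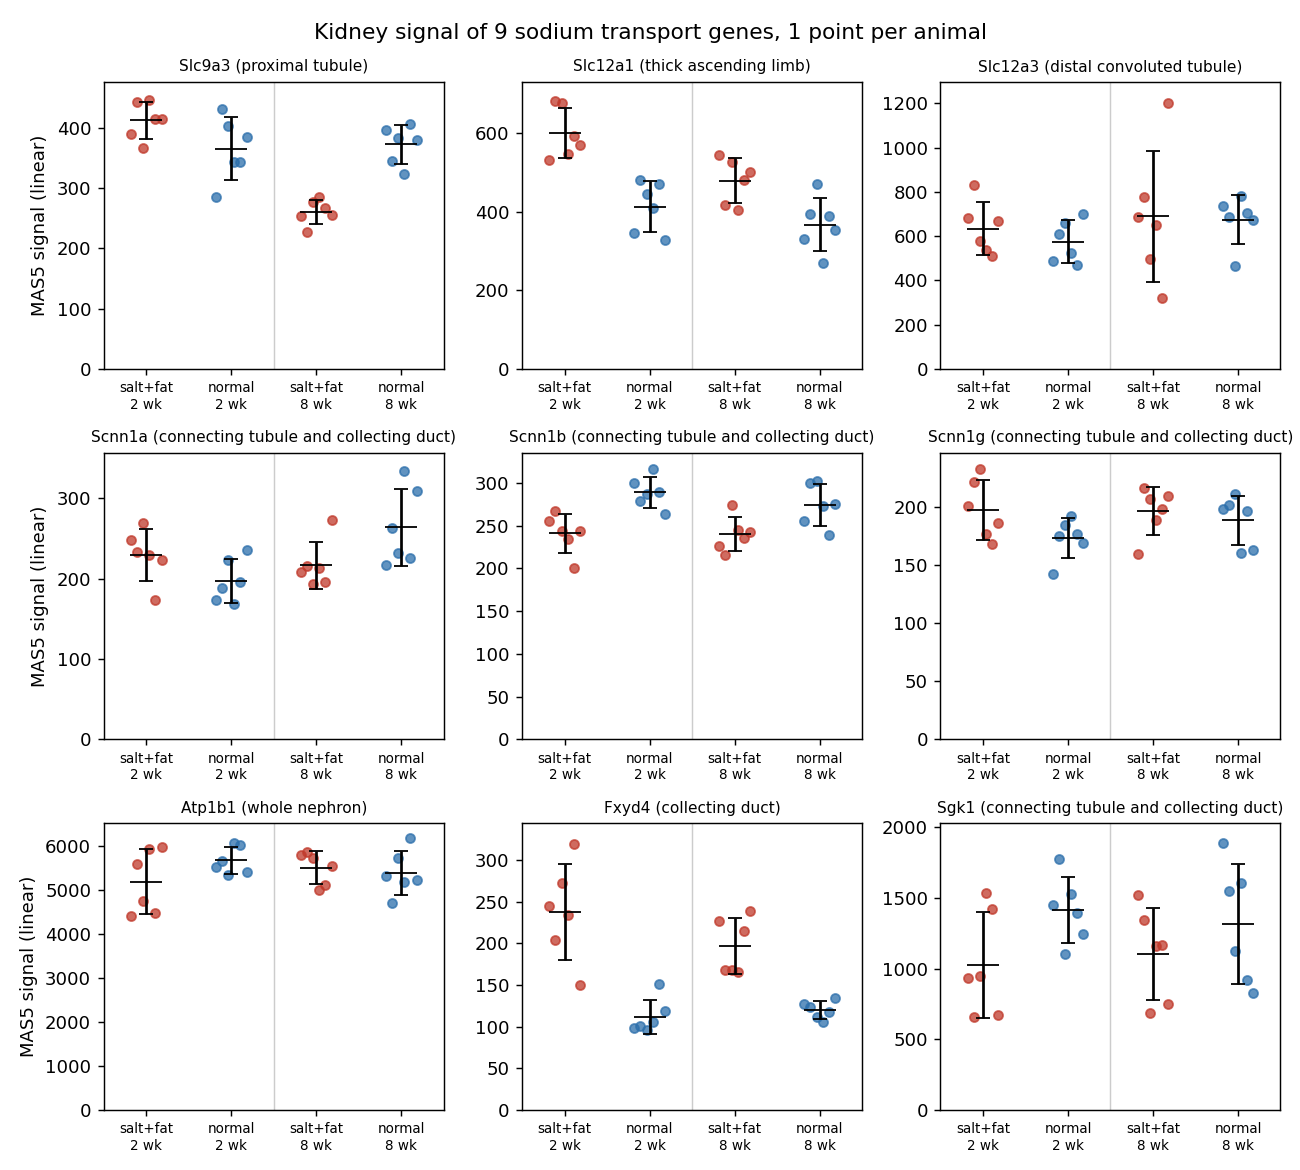
Linear MAS5 signal of each of the 9 genes, 1 panel per gene from the proximal tubule to the collecting duct, with 1 point per animal and a mean ± SD for the 6 animals of each group. The 6 HSF animals of Fxyd4 lay between 165.1 and 239.5 at 8 weeks, all above the normal diet animals, which lay between 105.2 and 133.8.

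Slc9a3, the exchanger through which most proximal sodium enters, was lower on the HSF diet at 8 weeks and was not called at 2 weeks. At 2 weeks its signals ran from 366.6 through a median of 414.5 to 446.1 on the HSF diet, against 284.7, 364.3 and 431.3 on the normal diet. The groups overlapped, although all 6 HSF arrays were above the normal diet median. At 8 weeks the signals ran from 227.7 through 261.1 to 284.6 on the HSF diet, against 322.7, 381.8 and 406 on the normal diet, with no overlap. Means at 2 weeks were 412 ± 30.5 in HSF animals and 365 ± 52.2 in normal diet animals (SD, n = 6 each). The 8-week HSF mean was 261 ± 20.2 and the normal diet mean 372 ± 32.0. The 2-week difference of 0.18 ± 0.08 was not called by limma (adjusted p = 0.192, 95% interval 0.01 to 0.35). The 8-week difference of -0.50 ± 0.08 was called (adjusted p = 0.000248), and the mean signal was 0.700 times that on the normal diet.

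The change in the Slc9a3 difference between the times was itself tested. The interaction was -0.68 ± 0.12 (limma adjusted p = 0.00871, 95% interval -0.93 to -0.44), the only interaction called among the 9 genes, where 0.382% of all probe sets were called and 0.0392% in this direction. Between 2 and 8 weeks Slc9a3 fell by 0.65 ± 0.08 on the HSF diet (adjusted p = 3.17e-05), and its 6 animals at 8 weeks lay below all 6 at 2 weeks. On the normal diet the same comparison gave 0.04 ± 0.08 (adjusted p = 0.940). Slc9a3 was the only one of the 9 called over time on the HSF diet, where 3.53% of all probe sets were called, 2.22% higher and 1.3% lower. On the normal diet 0 of the 9 were called over time, beside 4 probe sets, or 0.0392%, of the array (0.0294% higher and 0.0098% lower) and 869 with an unadjusted p under 0.05. The interaction of Slc9a3 kept its call without each array in turn (-0.73 to -0.62), but not with the GAPDH ratio (-0.61, adjusted p = 0.0653) or the spike-in level (-0.75, adjusted p = 0.126) as a covariate. Different rats were examined at each time, and the 2-week and 8-week animals differed in age as well as in time on the diet.

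Several other proximal genes were lower at both times. Of 10 proximal tubule markers, 6 fell and 0 rose at 2 weeks (median -0.32), and 4 fell and 0 rose at 8 weeks (median -0.21). The endocytic receptor gene Lrp2 fell at both times, by 0.26 and 0.33, as did the organic anion transporter gene Slc22a8, by 0.40 and 0.38. Summed over the 10 markers, signals were 19812.8 to 25326.8 in HSF animals and 27460.2 to 29383.5 in normal diet animals at 2 weeks. The 8-week sums were 20684.5 to 24549.2 in HSF animals and 23773.9 to 30267.5 in normal diet animals. Measured against the mean log2 signal of these markers in the same array, Slc9a3 was higher by 0.53 at 2 weeks, with no overlap of the groups (exact permutation p = 0.00216, the smallest 924 splits allow, adjusted p = 0.00576 over 16 such tests). At 8 weeks it was lower against them by a difference of -0.22 (exact permutation p = 0.0238, adjusted p = 0.0423). Without 1 array, for any of 9 arrays, this second result was not below the threshold (-0.24 to -0.18), nor was it with the median of the markers (-0.14, adjusted p = 0.205). With quantile normalization 4 of the 10 markers fell at 2 weeks (list median -0.16) and 6 fell at 8 weeks (list median -0.22). The measure against markers, here and for the genes below, was not recomputed under quantile normalization or another scaling. This measure and its marker lists were chosen after values of these data had been seen.

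Slc12a1, through which the thick ascending limb takes up sodium, potassium and chloride, had signals at 2 weeks from 533 through a median of 582.05 to 680.9 on the HSF diet. On the normal diet they ran from 328.9 through 426.35 to 481.2, so the groups did not overlap. At 8 weeks the signals ran from 403.2 through 490.85 to 544.9 on the HSF diet, against 268.2, 370.65 and 470.6 on the normal diet. These groups overlapped, with all 6 HSF arrays above the normal diet median. Limma gave 0.54 ± 0.11 at 2 weeks (adjusted p = 0.00282) and 0.39 ± 0.11 at 8 weeks (adjusted p = 0.0282). The 2 differences did not differ past the test (interaction -0.15 ± 0.16, 95% interval -0.48 to 0.18, adjusted p = 0.766).

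The 2-week call of Slc12a1 was kept without any single array, and lost with the fat index (0.50, adjusted p = 0.0690) or the GAPDH ratio (0.45, adjusted p = 0.0534) as a covariate. The 8-week call needed each of 5 arrays, numbers 1, 3 and 5 of the HSF group and 1 and 4 of the normal diet group. Without one of them it was lost, with differences of 0.30 to 0.39 and adjusted p from 0.0551 to 0.0813. It was also lost without normal diet arrays 1 and 2 together (0.39, adjusted p = 0.0794). Those 2 arrays stood apart at 8 weeks, their first-percentile signals being 2.4 and 3.0 where other arrays had 0.7 to 1.2.

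Some other genes of the thick ascending limb were higher as well. Of 7 markers, 3 rose and 0 fell at 2 weeks (median 0.37), which were the tight junction genes Cldn10 (0.41 ± 0.09), Cldn16 (0.52 ± 0.16) and Cldn19 (0.57 ± 0.13). At 8 weeks 1 of 7 rose, Cldn19 (0.61 ± 0.13), with a list median of 0.35. Uromodulin, Umod, the main secreted protein of the segment, had -0.02 ± 0.08 at 2 weeks and 0.11 ± 0.08 at 8 weeks, and Egf had 0.06 ± 0.07 and 0.02 ± 0.07. Against the mean of these markers Slc12a1 differed by 0.25 at 2 weeks (exact permutation p = 0.0433, adjusted p = 0.0693) and 0.10 at 8 weeks (adjusted p = 0.338). Among refits without 1 array, the 2-week value passed only without HSF array 6 (0.30, exact permutation adjusted p = 0.0243). Without other arrays its adjusted p reached 0.13. With the median of the markers the 8-week value was -0.02. The apical potassium channel gene Kcnj1, which recycles the potassium that the cotransporter brings in, had 0.37 ± 0.14 (adjusted p = 0.0897) and 0.41 ± 0.14 (adjusted p = 0.0567).

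Slc12a3, the cotransporter of the distal convoluted tubule, showed no diet difference past the test, and at 8 weeks its signal varied widely among animals on the HSF diet. The 2-week signals ran from 510.5 through a median of 621.65 to 831.2 on the HSF diet, against 467.9, 564.85 and 701.4 on the normal diet. At 8 weeks they ran from 321.1 through 667.45 to 1201 in HSF animals, against 463.2, 695.4 and 782.7 in normal diet animals. The groups overlapped at both times, and the 8-week HSF group held both the lowest and the highest of the 24 signals. Its coefficient of variation was 43.3%, against 16.4% on the normal diet at the same time. Differences were 0.14 ± 0.19 at 2 weeks (limma adjusted p = 0.727, 95% interval -0.26 to 0.53) and -0.06 ± 0.19 at 8 weeks (adjusted p = 0.887, 95% interval -0.46 to 0.34). The intervals leave room for a change of either sign, and the 8-week value ran from -0.24 to 0.13 as single arrays were left out.

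Neighbouring distal genes fell at 8 weeks. Of 4 tested markers of the distal convoluted and connecting tubule, 1 fell and 0 rose at 2 weeks, and 3 fell and 0 rose at 8 weeks (median -0.37). At 8 weeks these were calbindin Calb1 (-0.58 ± 0.10), tissue kallikrein Klk1 (-0.35 ± 0.09) and the sodium calcium exchanger gene Slc8a1 (-0.39 ± 0.12). Klk1 was also the gene that fell at 2 weeks (-0.32 ± 0.09), a call that quantile normalization removed. After the arrays were centred on their medians, or without normal diet arrays 1 and 2, 2 of the 4 fell at 8 weeks. Slc12a3 measured against these markers differed by 0.22 at 2 weeks (exact permutation adjusted p = 0.168) and 0.28 at 8 weeks (adjusted p = 0.335). Among refits without 1 array, the 8-week value passed only without HSF array 5 (0.46, exact permutation adjusted p = 0.0485). Without other arrays its adjusted p reached 0.626.

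**Figure D2:**
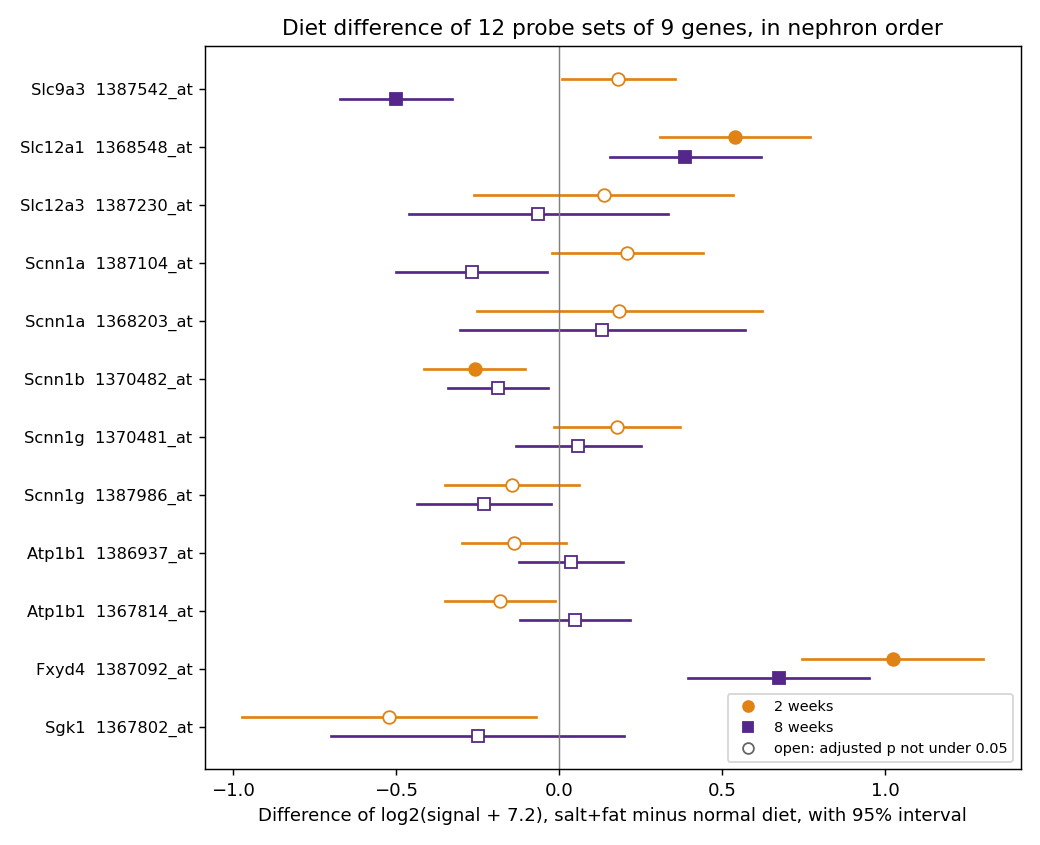
Diet difference of log2(signal + 7.2), HSF minus normal diet, for the 12 probe sets in nephron order from top to bottom, with 95% intervals. Circles are 2 weeks and squares 8 weeks, filled where the limma adjusted p was under 0.05, and Fxyd4 at 2 weeks (1.02) lies farthest to the right.

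Of the 3 subunits of ENaC, 1 was called, at 2 weeks. Scnn1b, the beta subunit, had 2-week signals from 200.5 through a median of 243.75 to 267.5 on the HSF diet, against 263.5, 288.2 and 316.4 on the normal diet. The groups overlapped narrowly, with all 6 HSF arrays below the normal diet median. Its 8-week signals ran from 215.1 through 239.15 to 274.1 on the HSF diet, against 238.5, 274.35 and 301.8 on the normal diet. Limma gave -0.26 ± 0.08 at 2 weeks (adjusted p = 0.0300) and -0.19 ± 0.08 at 8 weeks (adjusted p = 0.121), and the interaction was 0.07 ± 0.11 (adjusted p = 0.843). The 2-week call was lost without array 5 of the HSF group or without array 1, 3 or 4 of the normal diet group (-0.26 to -0.21). It was lost also with the fat index (-0.26, adjusted p = 0.170), the GAPDH ratio (-0.23, adjusted p = 0.177) or the spike-in level (-0.29, adjusted p = 0.0757) as a covariate.

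Scnn1a, the alpha subunit, which aldosterone induces in the kidney, had 2-week signals from 173.8 through a median of 231.55 to 269.5 on the HSF diet, against 168.7, 191.65 and 235.8 on the normal diet. At 8 weeks they ran from 192.7 through 211.1 to 272.4 on the HSF diet, against 217.3, 247.6 and 334.6 on the normal diet. The groups overlapped at both times, and the order of the medians was opposite at the 2 times. Differences were 0.21 ± 0.11 (limma adjusted p = 0.271) and -0.27 ± 0.11 (adjusted p = 0.142), with an interaction of -0.48 ± 0.16 that had an unadjusted p of 0.00591 and was not called (adjusted p = 0.217). On the normal diet the 8-week animals were higher than the 2-week animals by 0.40 ± 0.11, also not called (adjusted p = 0.238). A second, dimmer probe set of Scnn1a had 0.18 ± 0.21 and 0.13 ± 0.21, so the 8-week values of the pair differed in sign. Its mean signals at 2 weeks were 64.9 ± 15.4 in HSF animals and 56.4 ± 14.4 in normal diet animals. Its HSF mean at 8 weeks was 70.0 ± 13.7 and the normal diet mean 67.6 ± 28.2.

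Scnn1g, the gamma subunit, gave different signs with its 2 probe sets. The brighter one ran from 168 through a median of 193.5 to 232.7 at 2 weeks on the HSF diet, against 142, 176.25 and 192.7 on the normal diet. At 8 weeks it ran from 159.4 through 202.45 to 216.3 in HSF animals, against 160.6, 197.5 and 211 in normal diet animals. Differences were 0.18 ± 0.09 (limma adjusted p = 0.256) and 0.06 ± 0.09 (adjusted p = 0.758). The dimmer probe set of Scnn1g had -0.14 ± 0.10 (adjusted p = 0.420) and -0.23 ± 0.10 (adjusted p = 0.158), with means at 8 weeks of 156 ± 11.2 on the HSF diet and 186 ± 30.9 on the normal diet. No direction is given for the gamma subunit, because its probe sets disagree and neither was called.

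With group means removed, deviations of the 24 arrays correlated at 0.68 between the probe sets of Atp1b1, at 0.51 between those of Scnn1a and at 0.21 between those of Scnn1g. Between the brighter probe sets of the ENaC subunits the correlations were 0.15 for Scnn1a and Scnn1b, 0.03 for Scnn1a and Scnn1g, and 0.34 for Scnn1b and Scnn1g. The points share arrays and scaling, and the values are descriptions. The pair of Scnn1g thus followed each other from animal to animal less closely than the pair of Atp1b1 did.

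Atp1b1, part of the pump in every nephron segment, had no diet difference past the test. At 2 weeks the brighter probe set ran from 4400.5 through a median of 5165.2 to 5983.4 on the HSF diet, against 5343.1, 5593.1 and 6071.2 on the normal diet. At 8 weeks it ran from 4993 through 5635.45 to 5872.4 in HSF animals, against 4695.8, 5264.8 and 6173.9 in normal diet animals. The groups overlapped at both times. Differences were -0.14 ± 0.08 (limma adjusted p = 0.294) and 0.04 ± 0.08 (adjusted p = 0.838), and the second probe set had -0.18 ± 0.08 (adjusted p = 0.181) and 0.05 ± 0.08 (adjusted p = 0.774). Quantile normalization turned the 2-week signs of both, to 0.13 and 0.03. Of 6 other genes of the pump and its FXYD partners that were tested, 2 rose and 0 fell at 2 weeks, and 0 were called at 8 weeks. These were Atp1b3, a further beta subunit (0.35 ± 0.10, adjusted p = 0.0196), and Fxyd6 (0.44 ± 0.13, adjusted p = 0.0270). Quantile normalization left 1 of these calls, and the fat index or the GAPDH ratio as a covariate left 0. The call of Fxyd6 was lost also without any one of 5 arrays and with the spike-in level, and that of Atp1b3 without any one of 2 arrays. Fxyd2, the gamma subunit of the renal pump, had -0.11 ± 0.07 and 0.05 ± 0.07, not called.

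Fxyd4 had the largest diet difference of the 9 genes at both times. Its 2-week signals ran from 150.1 through a median of 239.75 to 319.6 on the HSF diet, against 95.5, 103.25 and 150.8 on the normal diet. The lowest HSF animal lay just under the highest normal diet animal, and the groups were otherwise apart. At 8 weeks the signals ran from 165.1 through 191.65 to 239.5 on the HSF diet, against 105.2, 120.4 and 133.8 on the normal diet, with no overlap. Means at 2 weeks were 238 ± 57.9 in HSF animals and 111.5 ± 20.9 in normal diet animals (SD, n = 6 each). At 8 weeks the HSF mean was 197 ± 33.8 and the normal diet mean 119.8 ± 10.4. Limma gave 1.02 ± 0.14 at 2 weeks (adjusted p = 2.16e-05) and 0.67 ± 0.14 at 8 weeks (adjusted p = 0.00191). The interaction of -0.35 ± 0.19 was not called (adjusted p = 0.497, 95% interval -0.74 to 0.04). Both diet calls stood in every refit, including each array left out in turn (0.93 to 1.14 at 2 weeks and 0.62 to 0.72 at 8 weeks).

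Markers of the principal cell, the collecting duct cell in which Fxyd4 and ENaC are made, were in part higher as well. Of 6 markers 4 rose and 0 fell at 2 weeks (median 0.63), namely the water channel genes Aqp2 (1.16 ± 0.14), Aqp3 (0.73 ± 0.08) and Aqp4 (1.97 ± 0.16) and the vasopressin receptor gene Avpr2 (0.54 ± 0.13). The water channel genes also rose at 8 weeks, which made 3 of 6 and a median of 0.32, or 2 of 6 and a median of 0.26 without normal diet arrays 1 and 2. Gata3, a transcription factor of the collecting duct, had -0.04 ± 0.14 and -0.17 ± 0.14, and Hsd11b2, the enzyme that keeps glucocorticoids from the aldosterone receptor, had -0.17 ± 0.08 and 0.07 ± 0.08. Summed over the 6 markers, signals were 2632.8 to 3102.6 in HSF animals and 1550 to 2090.3 in normal diet animals at 2 weeks. The 8-week sums were 2541.9 to 3352.3 in HSF animals and 1770.6 to 2384.8 in normal diet animals. Of 4 intercalated cell markers, which name the other cell type of the duct, 1 rose and 0 fell at 2 weeks and 0 rose and 1 fell at 8 weeks.

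Measured against the mean of the principal cell markers, the brighter probe sets of all 3 ENaC subunits were lower at both times, and the difference of Fxyd4 did not pass the test. Scnn1b was lower by a difference of -0.96 at 2 weeks and -0.59 at 8 weeks, with no overlap at either time (exact permutation p = 0.00216 each, adjusted p = 0.00576). Scnn1a had -0.49 (adjusted p = 0.00990) and -0.67 (adjusted p = 0.00576), and the brighter Scnn1g probe set had -0.52 (adjusted p = 0.00576) and -0.34 (exact permutation adjusted p = 0.0130). With the median of the markers the 8-week value of Scnn1g was -0.25 (adjusted p = 0.0654). Fxyd4 had 0.33 (adjusted p = 0.109) and 0.27 (exact permutation adjusted p = 0.0895). Among refits without 1 array, Fxyd4 passed at 2 weeks only without HSF array 6 (0.44, exact permutation adjusted p = 0.0243). At 8 weeks it passed only without normal diet array 1 (0.34, adjusted p = 0.0308). Without other arrays the adjusted p reached 0.198 at 2 weeks and 0.162 at 8 weeks. The mean of this list is raised by its 3 water channel genes, so a gene that did not change comes out lower against it. On their own at 2 weeks, Scnn1a had 0.21 and the brighter Scnn1g probe set 0.18, neither called. Both lay above the 2-week values of the markers Gata3 and Hsd11b2, so the sign of these relative values depends on the markers taken.

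**Figure D3:**
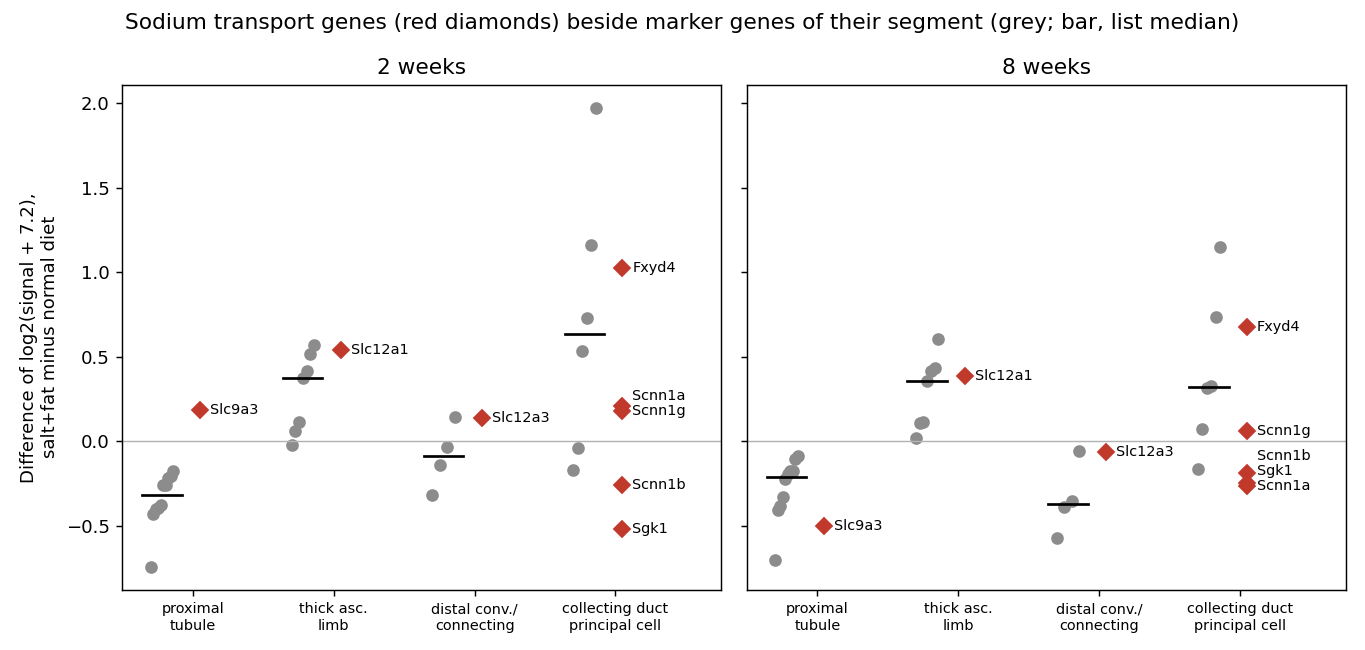
Diet difference of log2(signal + 7.2), HSF minus normal diet, at 2 weeks and at 8 weeks for the sodium transport genes of each nephron segment (red diamonds) beside the marker genes of that segment (grey points, with a bar at their median). The ENaC subunits and Sgk1 lie below the bar of the collecting duct, which is at 0.63 at 2 weeks and 0.32 at 8 weeks, and Fxyd4 lies above it.

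Sgk1, the kinase that keeps ENaC at the membrane by acting on the ubiquitin ligase encoded by Nedd4l, varied widely among animals, with coefficients of variation of 36.4% in HSF animals and 16.4% in normal diet animals at 2 weeks. At 8 weeks they were 29.8% in HSF animals and 32.2% in normal diet animals. Its 2-week signals ran from 655.3 through a median of 938.55 to 1535.1 on the HSF diet, against 1100.8, 1421.05 and 1772.6 on the normal diet. At 8 weeks they ran from 683.5 through 1160.85 to 1518.1 in HSF animals, against 826.8, 1338.35 and 1888.2 in normal diet animals. The groups overlapped at both times. Differences were -0.52 ± 0.22 at 2 weeks, with an unadjusted p of 0.0246 and a limma adjusted p of 0.145, and -0.25 ± 0.22 at 8 weeks (adjusted p = 0.532). Against the principal cell markers Sgk1 had -1.22 at 2 weeks (exact permutation p = 0.00216, adjusted p = 0.00576) and -0.65 at 8 weeks (adjusted p = 0.0755), although Sgk1 is transcribed in many kidney cells besides these. Among refits without 1 array, the 8-week value passed only without normal diet array 6 (-0.78, exact permutation adjusted p = 0.0485). Without other arrays its adjusted p reached 0.139.

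Of 17 tested genes that act on ENaC and on the aldosterone pathway, 1 rose and 1 fell at 2 weeks, and 0 rose and 1 fell at 8 weeks. These counts are near the shares of all probe sets called, 8.74% at 2 weeks and 9.14% at 8 weeks. At 2 weeks Nedd4l, the ligase that removes ENaC from the membrane, rose by 0.37 ± 0.11 (limma adjusted p = 0.0306), and the related ligase gene Nedd4 fell by 0.30 ± 0.08 (adjusted p = 0.0240). Both 2-week calls were lost with each of the 3 covariates, that of Nedd4l also without any one of 6 arrays and that of Nedd4 without any one of 3. Quantile normalization left 0 of these 17 genes higher at 2 weeks. At 8 weeks Prss8, a protease that cleaves and activates ENaC, fell by 0.34 ± 0.10 (adjusted p = 0.0306), a call lost without any one of 6 arrays and with the spike-in level. Nr3c2, the aldosterone receptor gene, had -0.01 ± 0.15 and -0.10 ± 0.15, neither called. Its signals were 86.9 to 142.9 in HSF animals and 90.1 to 160 in normal diet animals at 2 weeks.

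Nedd4 was the one gene of the 52 in the transport and regulator lists with an interaction past the test, and that call was lost in many refits. Its signals were 598 ± 83.2 in HSF animals and 732 ± 40.7 in normal diet animals at 2 weeks. At 8 weeks they were 772 ± 55.6 in HSF animals and 658 ± 81.0 in normal diet animals (SD, n = 6 each), and the 8-week difference of 0.23 ± 0.08 was not called (adjusted p = 0.0741). The interaction was 0.53 ± 0.12 (limma adjusted p = 0.0334), where 0.343% of all probe sets were called in this direction. It was not called without any one of 12 of the 24 arrays, which were HSF arrays 1, 2 and 3 at 2 weeks and 1, 3 and 5 at 8 weeks, and normal diet arrays 2, 3 and 4 at 2 weeks and 1, 2 and 4 at 8 weeks (0.48 to 0.53). It was not called either with the fat index (0.63, adjusted p = 0.0622), the GAPDH ratio (0.51, adjusted p = 0.130) or the spike-in level (0.53, adjusted p = 0.288) as a covariate. Its sign was opposite to that of the Slc9a3 interaction.

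Other sodium-coupled carriers and exchanger regulators moved both ways, in a list not limited to carriers of the proximal tubule. Of 17 carriers and exchanger regulators tested, 3 rose and 6 fell at 2 weeks (median -0.26), and 2 rose and 5 fell at 8 weeks (median -0.16). Quantile normalization left 2 higher and 4 lower at 2 weeks (median -0.15), and gave 2 higher and 6 lower at 8 weeks (median -0.18). Slc4a4, the bicarbonate carrier by which sodium leaves the proximal cell, fell by 0.47 ± 0.07 at each time (limma adjusted p = 8.17e-05 and 5.68e-05). Its signals were 896 ± 52.0 and 901 ± 74.0 on the HSF diet at 2 and 8 weeks, against 1246 ± 104 and 1247 ± 115 on the normal diet. Slc34a1, the main phosphate carrier, fell by 0.38 ± 0.08 at 2 weeks (adjusted p = 0.00361), and the sulfate carrier Slc13a1 by 0.55 ± 0.11 (adjusted p = 0.00234). Both calls were lost once the fat index entered the model (adjusted p = 0.0540 for Slc34a1 and 0.0718 for Slc13a1), and quantile normalization gave Slc34a1 -0.15 (adjusted p = 0.0618). At 8 weeks the glucose carrier Slc5a2 fell by 0.71 ± 0.13 (adjusted p = 0.000569). The carriers that rose at 8 weeks were Slc4a7, a bicarbonate cotransporter (1.45 ± 0.20 at 2 weeks and 1.00 ± 0.20 at 8 weeks), and Slc34a2, a phosphate carrier known from lung and intestine (0.99 ± 0.16 at 8 weeks, adjusted p = 0.000149).

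The genes that work beside the cotransporters of the loop and distal tubule were too few to set against the 8.74% and 9.14% of all probe sets called. Of 6 chloride cotransport partners of the loop, 0 were called at either time. Of 6 kinases, ligase parts and potassium channels that act on the cotransporters, 0 rose and 1 fell at each time. This was Kcnj16, a subunit of the basolateral potassium channel of the distal tubule, which fell by 0.36 ± 0.09 at 2 weeks (limma adjusted p = 0.00792) and 0.38 ± 0.09 at 8 weeks (adjusted p = 0.00508). At 2 weeks its signals were 947.4 to 1184.9 on the HSF diet and 1220.7 to 1390.4 on the normal diet, with no overlap, although the 2-week call was lost with the spike-in level (-0.25, adjusted p = 0.150). Over all 52 genes of these lists, 6 rose and 8 fell at 2 weeks (26.9%) and 2 rose and 7 fell at 8 weeks (17.3%). Of all probe sets 8.74% and 9.14% were called, and the medians of the 52 were 0.02 and 0.04. Most of these calls came from the list of carriers and exchanger regulators. With the fat index as a covariate most of the 2-week calls were lost, and Slc4a4, Slc4a7 and Kcnj16 kept theirs. That refit called 2.27% of all probe sets. The lists were chosen with earlier results known, so the shares do not set the 52 genes apart from the array.

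**Figure D4:**
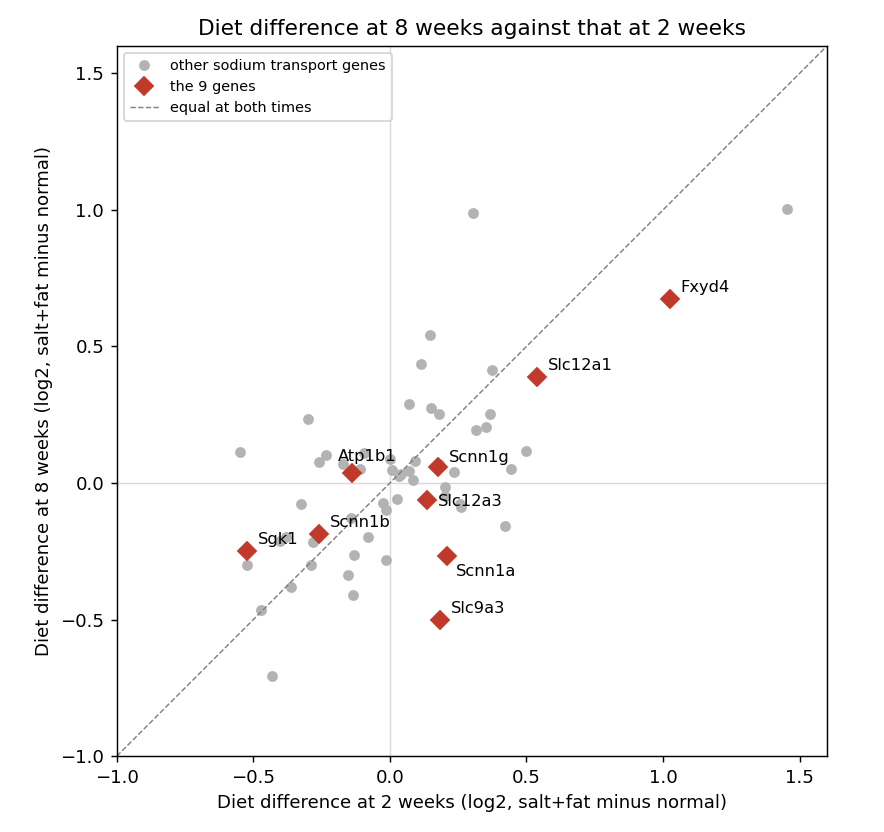
Diet difference at 8 weeks (vertical axis) against that at 2 weeks (horizontal axis), both in log2 units as HSF minus normal diet, for the 9 genes (red diamonds). Grey points are the 52 tested genes of the transport and regulator lists, which include regulators and potassium channels. Slc9a3 (0.18 and -0.50) lies far below the dashed line of equal values, and the 2 axes share no animals.

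Measures of tissue and RNA moved with the diet at 2 weeks, and their part in the calls above was not tested beyond the covariate values given. Of 3 tested adipocyte genes 3 fell at 2 weeks, with sums over 5 markers of 106.8 to 280.3 on the HSF diet and 294.1 to 3862.1 on the normal diet. At 8 weeks 0 were called, and the sums were 342.8 to 679.8 in HSF animals and 97.4 to 3408 in normal diet animals. GAPDH signal at the 3' end over that at the 5' end, a gauge of RNA integrity, was 1.22 ± 0.09 on the HSF diet and 1.09 ± 0.07 with normal chow after 2 weeks, where an exact permutation test gave p = 0.0152 (adjusted p = 0.0304 over 6 such tests). The level of spiked control RNA gave a log2 difference of -0.30 at 2 weeks, with an adjusted p of 0.0130 by the same test, and of 0.23 at 8 weeks (adjusted p = 0.0714). Of 5 macrophage genes tested, 3 rose at 8 weeks and 0 were called at 2 weeks. Adrenal genes, which a kidney sample could carry along, were below the filter in all 5 cases.

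Genes whose deviations from the group means most resembled those of each of the 9 were found over the 24 arrays. The closest were Zmiz1 for Slc9a3 (Pearson r = 0.76), Mars1 for Slc12a1 (0.77), Aldh16a1 for Slc12a3 (0.86), Nat8f3 for Scnn1a (0.77), Stx5 for Scnn1b (0.72) and Gemin2 for Scnn1g (0.75). They were Sult1c2a for Atp1b1 (0.85), Nsd3 for Fxyd4 (0.72) and Pxdc1 for Sgk1 (0.82). After Sult1c2a, Atp1b1 was followed by Kap and Gpx3, both strongly transcribed in the proximal tubule (0.83 each). Sgk1 was followed by Ccn2, which encodes a matrix-associated growth factor (0.81). Among the 9 genes themselves, the closest pair was Slc12a3 and Scnn1a (0.55). HSF animal 6 at 8 weeks had the highest signal of its group for both, 1201 for Slc12a3 and 272.4 for Scnn1a. The correlation without this animal was not tested. The correlations come from arrays that share scaling and scanning. Those of the closest genes are the highest among the 8656 tested probe sets with 1 symbol, less those of the gene itself. All are given as descriptions.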

How the data were processed

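Total RNA of whole kidneys was labelled with biotin and hybridised to a rat array, 1 array for each of 24 animals, per the labels' protocols. The authors deposited 1 intensity value per probe set and array, MAS5 signals per the submitters' processing notes, for 15923 probe sets. Scaling target, software version and detection calls are not given in the sources used here. The values were linear and not below 0, with 27 at exactly 0. The mean without the extremes of each array lay between 150.034 and 150.042, so arrays had been scaled alike, and no further normalization was applied. The number of arrays limits the precision, and p-values set a difference against the spread between arrays, with 1 array per animal.

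Gene symbols are those of the platform annotation, checked through gene identifiers against the rat assembly GRCr8 (0 changed). Of the probe sets, 12783 had 1 symbol, 312 several and 2771 none. Signals were turned into log2(signal + 7.2), with 7.2 taken as 0.1 of the middle value among the array medians. Probe sets above the 40th percentile of an array, a signal of 44.48 to 54.5, on at least 6 of 24 arrays were tested, which left 10208. Group means were fitted to all 24 arrays with limma 3.58.1 in R 4.3.3 (lmFit, contrasts.fit, eBayes with trend). The 5 comparisons were diet at 2 and at 8 weeks, their difference, and 8 against 2 weeks on each diet. Two-sided p values were adjusted by the Benjamini-Hochberg method over all probe sets tested. The procedure was first tested on simulated data.

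Where a gene had several probe sets, the one of highest mean log2 signal stands for it and the others are given beside it. Single measures were compared with exact two-sided permutation tests over 924 splits, the smallest possible p being 0.00216. The index of fat averages the standardised log2 signals of 3 adipocyte genes, and the spike-in level that of 18 control probe sets. Every probe set of the 9 genes is described. From each pathway list up to 4 called genes of smallest p are named in each diet comparison, and further genes are named from the marker lists. For likeness, the 3 genes of highest Pearson r over the 24 arrays were taken, after removal of group means. Motifs were sought in the 250 bases before each start. The genes, lists, rules and other settings were chosen with earlier results of these data known, so none is independent evidence. Gata3, Umod, Egf, Fxyd2, Kcnj1, Hsd11b2 and Nr3c2 were named after their values were seen.

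Other settings were other pseudocounts, quantile normalization, centring on array medians, array weights, other filters, a replicate block, eBayes in its robust form or with no trend, the groups compared alone, each array left out, normal diet arrays 1 and 2 at 8 weeks left out, the mean of a gene's probe sets, and the fat index, GAPDH ratio or spike-in level as a covariate. The measure of a gene against its segment's markers, its form with the median of the markers, its refits without single arrays, and the refits of single genes from the lists were added after values were seen.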

Additional observations from a re-analysis of the deposited data

Results flagged for a closer look

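The Slc9a3 diet difference at 8 weeks differed from that at 2 weeks by -0.68 on the log2 scale, by a test of the difference itself (limma adjusted p = 0.00871). Single animals stood far from the other 5 of their group in 3 of 48 groups examined, where chance marks about 1 in 20 groups. For Slc12a3, the lowest normal diet animal at 8 weeks had a signal of 463.2. For Scnn1a, the same HSF animal, number 6 at 8 weeks, was the highest of its group on both probe sets, at 272.4 on the brighter and 96.8 on the dimmer.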

How the results depend on the processing

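Of the values of the 12 probe sets under other settings, 1418 kept their direction and side of the threshold, 20 lost a call, 1 gained one and 37 changed sign. Against segment markers 383 were kept, 11 were lost, 5 were gained and 1 changed sign. Many refits without 1 array dropped an array of the other time, which leaves a diet difference itself unchanged. The numbers kept are therefore not a measure of stability. The Slc9a3 time change on the HSF diet kept its call throughout. The cause of the changes was not tested.

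The counts of probe sets called moved as follows. Diet at 2 weeks gave 232 with the fat index, 328 with the GAPDH ratio and 482 with the spike-in level as a covariate, in place of 892. Diet at 8 weeks gave 542 without normal diet arrays 1 and 2 and 497 with the spike-in level, in place of 933. The interaction gave 80 with array weights, 13 with the fat index, 4 with the GAPDH ratio and 0 with the spike-in level, in place of 39. Time on the HSF diet gave 632 with array weights and 223 with only its groups, in place of 360. Time on the normal diet, with 4 calls by limma, gave 2 after centring, 9 without normal diet arrays 1 and 2, and 0 with the filter on all 24 arrays, without trend, with only its groups, or with each of the 3 covariates. Without each array in turn the counts were 598 to 986 (diet at 2 weeks), 543 to 1120 (diet at 8 weeks), 22 to 50 (interaction), 220 to 507 (time on the HSF diet) and 0 to 10 (time on the normal diet). The lowest 8-week counts came without HSF arrays 1 or 5.

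Signs changed in values that were not called. For Atp1b1, brighter before dimmer probe set, quantile normalization gave 0.13 and 0.029 at 2 weeks, -0.024 and -0.0013 at 8 weeks, and -0.15 and -0.030 for the interaction. Without normal diet arrays 1 and 2 the 8-week values of Atp1b1 were -0.017 and -0.054. With the spike-in level the brighter had 0.0021 at 2 weeks, with both probe sets at -0.073 at 8 weeks, and -0.075 and -0.051 for the interaction. The dimmer Scnn1a set had -0.26 at 8 weeks without those 2 arrays, and -0.028 with the spike-in level. With the fat index it had -0.037 at 2 weeks and an interaction of 0.20, and with the GAPDH ratio an interaction of 0.020. The dimmer Scnn1g set had interactions of 0.033 without those 2 arrays and 0.090 with the spike-in level, and the mean of both Scnn1g sets was -0.085 at 8 weeks. Sgk1 had an interaction of -0.18 with the fat index. Slc12a3 had -0.021 at 2 weeks with the GAPDH ratio and 0.00067 at 8 weeks with the spike-in level. Slc9a3 over time on the normal diet had -0.0035 with the GAPDH ratio. Slc12a1 against its segment's markers at 8 weeks had -0.025 with their median. Without single arrays, 8-week values ran from -0.016 to 0.10 and -0.0031 to 0.076 for the dimmer and brighter Atp1b1 sets, -0.050 to 0.26 for the dimmer Scnn1a set (interaction -0.23 to 0.071) and -0.24 to 0.13 for Slc12a3. Slc9a3 over time on the normal diet ran from -0.032 to 0.085. The dimmer Atp1b1 set was called at 2 weeks with array weights (-0.22, adjusted p = 0.0444). Slc12a1 at 8 weeks was not called with array weights (0.36, adjusted p = 0.0507), with only its groups (0.39, adjusted p = 0.0513) or with the spike-in level (0.35, adjusted p = 0.122).

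Quantile normalization left 4 of 10 proximal tubule markers lower at 2 weeks, in place of 6. At 8 weeks it gave 6 of 10 lower, in place of 4. The labels do not say whether replicate numbers mark a shared litter or batch. Over 36 same-numbered pairs of arrays the deviations from group means correlated at -0.15 to 0.16, and 5 pairs were over 0.1. Their median was 0.02, against -0.0084 for pairs with other numbers, so no pairing by number was visible. With the replicate number as a block the 5 counts were 892, 922, 41, 354 and 5, and no call of the 9 genes changed.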
